A study of Mus musculus with 4 samples.

Results

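The PI3K, Akt and Foxo pathway was followed here through 9 genes in B220+ B cells of the spleen, namely *Pik3cd*, *Pik3r1*, *Pik3ap1*, *Inpp5d*, *Akt1*, *Akt2*, *Foxo1*, *Foxo3* and *Mtor*. They were taken by gene symbol from the 55401 genes with a deposited count, and each symbol matched 1 gene. Of the 4 RNA-seq libraries, 2 came from NSD1B WT mice (Mb1-Cre+ NSD1+/+) and 2 from NSD1B KO mice (Mb1-Cre+ NSD1 fl/fl), all on the C57BL/6J background. The mice were young adults without a treatment named in the labels, and the NSD1B WT controls carried the Cre transgene as well. Mb1-Cre is expressed from the *Cd79a* locus, so *Nsd1*, which encodes a methyltransferase of lysine 36 of histone H3, is deleted in the B lineage from its early stages, while any other cells in the sort would keep the gene. Controls were littermates, and males and females were used in the study, with no sex given per library. Whether the paired libraries of each genotype derive from separate mice is not stated, so that the p-values measure only the spread between these libraries, which may be technical.

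When an antigen binds the B cell receptor, class I PI3K turns a membrane lipid of the inner leaflet into PIP3. The kinase Akt docks on PIP3, is activated there, and phosphorylates the Foxo transcription factors, which then leave the nucleus. In B cells this pathway carries the survival signal of the resting receptor, and Foxo1 acts in early development, in homing and in the germinal center. Phosphatases such as SHIP1 take PIP3 down again, and mTOR kinase, in a pair of complexes, acts both upstream and downstream of Akt.

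The promoters of the 4 genes with the largest changes between genotypes are shown first, because 3 of these genes were lower and 1 was higher in NSD1B KO. Each window runs from 250 bases before to 50 bases after a RefSeq start site (GRCm38.p6, the build called mm10), 5′ to 3′ on the strand of the gene. Where RefSeq lists several starts, the one closest to the principal GENCODE transcript was taken, which for *Akt2* lay 61 bases from it. *Foxo3* is on the minus strand at chr10:42276646-42276945, *Pik3r1* on the minus strand at chr13:101768168-101768467, *Foxo1* on the plus strand at chr3:52268087-52268386 and *Akt2* on the plus strand at chr7:27605547-27605846. Capitals mark the GC box GGGCGG or its reverse complement CCGCCC, and the CCAAT box or its reverse complement ATTGG, and GC boxes may share letters.
Foxo3: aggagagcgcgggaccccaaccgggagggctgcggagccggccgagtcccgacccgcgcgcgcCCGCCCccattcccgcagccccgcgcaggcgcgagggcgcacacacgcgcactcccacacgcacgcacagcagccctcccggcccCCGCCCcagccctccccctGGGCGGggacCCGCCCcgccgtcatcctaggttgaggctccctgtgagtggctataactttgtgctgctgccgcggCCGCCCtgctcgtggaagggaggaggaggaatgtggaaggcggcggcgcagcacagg
Pik3r1: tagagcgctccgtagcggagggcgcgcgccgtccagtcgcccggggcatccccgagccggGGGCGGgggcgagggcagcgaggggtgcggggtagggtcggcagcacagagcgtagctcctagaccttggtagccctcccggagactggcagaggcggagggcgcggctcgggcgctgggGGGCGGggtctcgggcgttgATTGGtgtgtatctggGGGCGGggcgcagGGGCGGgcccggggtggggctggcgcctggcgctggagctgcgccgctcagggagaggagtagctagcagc
Foxo1: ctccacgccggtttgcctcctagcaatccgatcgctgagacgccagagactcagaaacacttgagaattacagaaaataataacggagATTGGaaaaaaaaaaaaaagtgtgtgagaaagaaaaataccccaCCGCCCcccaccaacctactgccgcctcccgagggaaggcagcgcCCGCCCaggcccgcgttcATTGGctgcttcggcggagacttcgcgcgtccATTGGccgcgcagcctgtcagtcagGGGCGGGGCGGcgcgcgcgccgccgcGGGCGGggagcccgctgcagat
Akt2: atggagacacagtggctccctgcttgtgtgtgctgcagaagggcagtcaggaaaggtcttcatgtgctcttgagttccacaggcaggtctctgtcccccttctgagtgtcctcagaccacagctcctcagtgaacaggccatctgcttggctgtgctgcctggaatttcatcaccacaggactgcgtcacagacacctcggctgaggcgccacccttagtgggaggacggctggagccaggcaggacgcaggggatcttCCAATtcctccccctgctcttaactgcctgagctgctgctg

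The windows of *Foxo3*, *Pik3r1* and *Foxo1* were rich in GC boxes, with 5, 4 and 5 of them, whereas that of *Akt2* had none. GC content was 75.0% for *Foxo3*, 75.7% for *Pik3r1*, 61.3% for *Foxo1* and 58.7% for *Akt2*. The ratio of observed to expected CpG dinucleotides was 0.834, 0.867 and 1.10 for these 3 lower genes, in that order, and 0.194 for *Akt2*, against a median of 0.384 over 32851 promoter windows of the same length. Direction and GC boxes did not go together over all 9 genes, since the *Akt1* window held 5 GC boxes and those of *Pik3ap1* and *Inpp5d* held none. *Akt2* has 4 listed starts, and counts per gene do not show which one was used in these cells. The *Akt2* window, which begins at 27605547, lies inside the gene, whose annotated 5′ end is at 27591552. Windows at the other *Akt2* starts were not examined, so its contrast with the 3 lower genes holds for this window alone. Over the 9 genes, 6 windows held a GC box and 4 a CCAAT box, and the shares over all promoter windows were 35.7% and 37.4%. The Foxo motif TGTTTAC or its reverse complement GTAAACA occurred in 0 of the 9 windows and in 3.65% of all windows, and the TATA box TATAAA or TTTATA in 0 of the 9 and in 13.6%. These are matches of letters in 1 window per gene, and no binding was measured.

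Counts on genes ranged from 6769118 to 7566834 per library. *Nsd1*, counted over the whole gene and not the floxed exons alone, had 497 and 480 counts in NSD1B WT and 284 and 280 in NSD1B KO, a log2 fold change of -0.74 (adjusted p = 8.08e-08, edgeR). All 7 B cell markers were counted in every library, with a summed level of 12584 to 12807 CPM (counts scaled to a common library size, with edgeR's TMM factors) in NSD1B WT and 11107 to 12099 in NSD1B KO, and 5 of the 7 were lower in NSD1B KO, among them *Pax5* and *Cd79a*, whose locus drives the Cre. Markers of other cells moved with the genotype too. The 5 erythroid markers rose together, from a sum of 35.6 to 39.6 CPM to a sum of 1690 to 1944. Of 7 T cell markers, 2 were higher and 2 lower, and their sum went from 863 to 868 CPM down to 113 to 114, most of it *Cd2*, while *Cd4* and *Cd8a* were at 0 in all 4 libraries. Of 6 monocyte and macrophage markers 5 were higher and 1 lower, with sums of 4600 to 4705 and 5808 to 6155 CPM, most of it *Lyz2*. Neutrophil markers summed to 3.83 to 5.46 CPM in NSD1B WT and 1.81 to 1.93 in NSD1B KO, with *Ly6g*, *Mpo* and *Elane* at 0, and 1 of them was higher and 1 lower. Plasma cell markers went from 216 to 231 CPM down to 170 to 174, with 1 higher, 2 lower and *Sdc1* at 0. The sums of NK cell markers (55.8 to 59.6 and 79.7 to 79.9 CPM, 1 higher and 1 lower, *Ncr1* and *Gzma* at 0) and of plasmacytoid dendritic cell markers (63.1 to 68.3 and 105.9 to 106.4 CPM, 1 higher, *Siglech* at 0) were larger in NSD1B KO. The part of these cells in the results below was not tested, and in a bulk sample fewer cells of a type and less RNA per cell cannot be told apart.

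Of the 9 pathway genes, 7 were lower and 1 was higher in NSD1B KO, and *Akt1* was not past the threshold. The threshold was a Benjamini-Hochberg adjusted p under 0.05 together with a change of over 1.2-fold, in edgeR's quasi-likelihood test of 11657 genes. Large parts of the transcriptome differed between these libraries, since 78.2% of all tested genes were past the threshold, 37.1% higher and 41.1% lower. The libraries of the genotypes did not overlap in CPM for any of the 9 genes, and this was so for 88.1% of all tested genes. A count of 8 in 9 is therefore close to the background, and no set test was made of the direction. The median log2 fold change was -0.91 for the 9 genes and -0.10 for all tested genes.

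**Figure D1:**
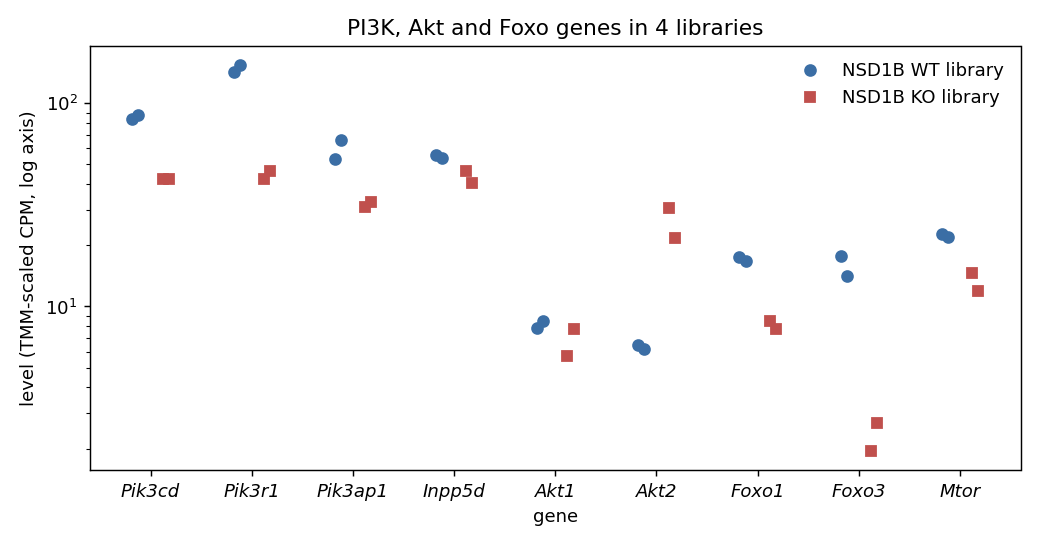
Level of each of the 9 genes in each library, in TMM-scaled CPM on a log axis. Circles are the 2 NSD1B WT libraries and squares the 2 NSD1B KO libraries. For *Akt2* the squares lie above the circles, and for the other 8 genes they lie below, with the smallest gap in CPM for *Akt1*.

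The class I PI3K enzyme of B cells consists of a catalytic subunit, mostly p110δ from *Pik3cd*, and a regulatory subunit, mostly p85α from *Pik3r1*, and both genes were lower in NSD1B KO. *Pik3r1* (ENSMUSG00000041417.15), at chromosome 13, 101680563 to 101768217, minus strand, had 1014 and 1125 counts in NSD1B WT and 304 and 313 in NSD1B KO. This was 148 ± 8.48 CPM in NSD1B WT and 44.4 ± 3.03 CPM in NSD1B KO (mean ± SD, n = 2 libraries). Both NSD1B KO libraries were far below both NSD1B WT libraries. On the log2 scale *Pik3r1* changed by -1.74 with a standard error of 0.10 (adjusted p = 9.11e-21, edgeR), a 3.33-fold decrease. A decrease of at least this size was seen in 3.99% of 2032 tested genes with a mean level within 2-fold of its own.

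*Pik3cd* (ENSMUSG00000039936.18), at chromosome 4, 149649168 to 149702571, minus strand, had 601 and 643 counts in NSD1B WT against 306 and 284 in NSD1B KO. Its level went from 86.0 ± 2.72 to 42.4 ± 0.219 CPM, and the spread within each genotype was small beside the gap between them. The change was -1.02 on the log2 scale with a standard error of 0.11 (adjusted p = 5.07e-12, edgeR). Among 2590 tested genes of like level, 14.7% fell by as much or more. The value was -0.63 once the trend of each library on exon length and GC had been taken out, still past the threshold.

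The regulatory subunit fell more than the catalytic one. Per kb of exon, *Pik3r1* stood at 1.05 and 1.09 times the level of *Pik3cd* in the NSD1B WT libraries and at 0.617 and 0.684 times in the NSD1B KO libraries. This ratio is taken within a library and does not depend on the scaling between libraries. With 2 libraries against 2, an exact permutation test cannot give a two-sided p below 0.333, so none was made for the ratios.

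Around these 2 subunits the make-up of the class I family differed between genotypes. *Pik3ca*, the gene of the broadly expressed p110α, fell from 82.4 ± 4.65 to 55.6 ± 1.62 CPM, a log2 fold change of -0.57 (adjusted p = 3.08e-06, edgeR). *Pik3cb*, the gene of p110β, had 34 and 30 counts in NSD1B WT and 0 in NSD1B KO, at least 20.5-fold lower against a limit of 3 counts over the group. Among the regulatory subunits, *Pik3r5*, the gene of the p101 partner of p110γ, fell from 22.4 ± 1.83 to 0.793 ± 0.139 CPM, a 27.7-fold decrease. *Pik3r3*, the gene of p55γ, went the other way, with 0 counts in NSD1B WT and 114 and 90 in NSD1B KO, at least 70.6-fold higher. *Pik3r1* thus made up 76.8% and 80.1% of the regulatory subunit signal per kb in NSD1B WT and 57.1% and 63.2% in NSD1B KO, where *Pik3r3* held 40.7% and 34.6%. *Pik3cd* held 57.1% and 60.3% of the catalytic subunit signal per kb in NSD1B WT, and 52.1% and 53.0% in NSD1B KO. The summed catalytic subunits were at 23.3 to 23.5 CPM per kb in NSD1B WT and at 12.7 to 13.0 in NSD1B KO. The summed regulatory subunits went from between 18.3 and 19.1 down to 7.30 and 7.34.

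**Figure D2:**
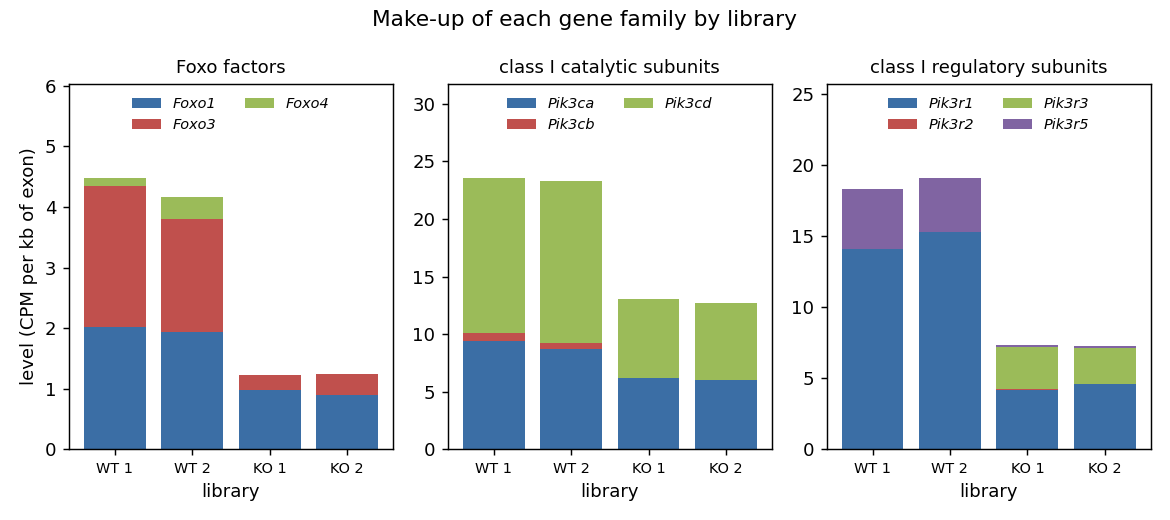
Level per kb of exon (CPM per kb) of the genes of 3 families, stacked for each library, with each axis starting at 0. WT and KO stand for NSD1B WT and NSD1B KO, and genes at 0 in all libraries are left out. The PI3K and Foxo bars are shorter in both NSD1B KO libraries, and *Pik3r3* appears only in the NSD1B KO bars.

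PI3K is brought to the membrane by adaptors, of which *Pik3ap1* encodes BCAP, a protein that binds p85 downstream of the B cell receptor. *Pik3ap1* (ENSMUSG00000025017.10) is at chromosome 19, 41272377 to 41385102, minus strand. It had 379 and 484 counts in NSD1B WT and 221 and 220 in NSD1B KO, or 59.6 ± 9.31 and 31.7 ± 1.41 CPM. The 2 NSD1B WT libraries differed from each other more than for *Pik3cd*, and both stayed above the NSD1B KO libraries. *Pik3ap1* changed by -0.91 ± 0.13 (standard error) on the log2 scale (adjusted p = 8.33e-09, edgeR), and by -0.60 once the length and GC trend was taken out. As many as 20.9% of 3089 tested genes of like level fell at least as much.

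The other tested genes of the list of adaptors and receptors were all lower as well, 4 of 4, or 3 of 4 once the length and GC trend was taken out. *Cr2*, which encodes CD21, a complement receptor of marginal zone and follicular B cells, fell 12.9-fold, from 40.2 ± 3.29 to 3.11 ± 1.06 CPM. *Gab3*, a docking protein of the Gab family, fell 11.6-fold, from 59.2 ± 4.28 to 5.07 ± 1.08 CPM.

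*Inpp5d* encodes SHIP1, a phosphatase that removes the 5-phosphate of PIP3 at inhibitory receptors. *Inpp5d* (ENSMUSG00000026288.14), at chromosome 1, 87620312 to 87720507, plus strand, had 397 and 393 counts in NSD1B WT and 335 and 274 in NSD1B KO. Its level was 54.7 ± 1.27 and 43.6 ± 4.12 CPM. The NSD1B KO libraries lay below the NSD1B WT libraries, but the gap was the smallest among the 7 lower genes, at -0.32 ± 0.12 (standard error) on the log2 scale (adjusted p = 0.0108, edgeR). This call was lost without NSD1B WT replicate 1 (log2 fold change -0.27), without NSD1B KO replicate 2 (-0.23), by DESeq2 (adjusted p = 0.0845) and once the length and GC trend was taken out (-0.07), in a range of adjusted p from 0.000907 to 0.561 over 15 alternatives. Per kb of exon, *Pik3cd* was at 1.84 and 1.99 times the level of *Inpp5d* in NSD1B WT and at 1.11 and 1.26 times in NSD1B KO.

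Of the 6 other tested phosphatases and inhibitors, 4 were lower, 1 was higher and 1 was not past the threshold. Once the length and GC trend was taken out, 2 were lower and 2 higher, with *Inpp5k* at -0.02 in place of -0.37 and *Pik3ip1* at 0.61 (adjusted p = 2.15e-06, edgeR) in place of 0.24. *Pik3ip1* was also past the threshold without NSD1B WT replicate 2 (0.30) and without NSD1B KO replicate 2 (0.34). *Inpp4a* and *Inpp4b* encode phosphatases of PI(3,4)P2, the lipid that SHIP1 makes, and they moved apart. *Inpp4a* fell 1.76-fold from 95.6 ± 5.16 CPM, and *Inpp4b* rose 2.21-fold from 12.4 ± 2.05 CPM. *Inpp5e*, another 5-phosphatase, had a log2 fold change of -0.85 (adjusted p = 0.000976, edgeR), and its call was lost without NSD1B WT replicate 2 (-0.55, adjusted p = 0.0988) and once the length and GC trend was taken out (-0.44).

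Among the Akt kinases, *Akt2* was the one gene of the 9 that rose, while *Akt1* was not past the threshold. *Akt2* (ENSMUSG00000004056.15), at chromosome 7, 27591552 to 27640826, plus strand, had 46 and 45 counts in NSD1B WT and 219 and 146 in NSD1B KO. This was 6.30 ± 0.199 CPM in NSD1B WT and 26.1 ± 6.17 in NSD1B KO. The 2 NSD1B KO libraries, at 30.4 and 21.7 CPM, differed from each other, and both were far above NSD1B WT. *Akt2* changed by 2.05 ± 0.22 (standard error) on the log2 scale (adjusted p = 7.77e-12, edgeR), a 4.14-fold increase. This value was 1.78 without NSD1B KO replicate 1 and 2.28 without NSD1B KO replicate 2. An increase of at least this size was seen in 15.1% of 3804 tested genes of like level. The processed pseudogene Akt2-ps shares 9.76% of the 50-base words of the *Akt2* transcripts and was listed with 0 counts in all 4 libraries.

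*Akt1* (ENSMUSG00000001729.14), at chromosome 12, 112653821 to 112674884, minus strand, had 56 and 62 counts in NSD1B WT and 41 and 52 in NSD1B KO. Its level was 8.16 ± 0.456 and 6.71 ± 1.44 CPM. The higher NSD1B KO library, at 7.73 CPM, lay just under the lower NSD1B WT library, at 7.84. The *Akt1* log2 fold change was -0.28 (95% interval -0.85 to 0.28, adjusted p = 0.350, edgeR), so that a change was not detectable at this depth. It was -0.08 without NSD1B KO replicate 1, -0.51 without NSD1B KO replicate 2, and 0.12 once the length and GC trend was taken out.

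Per kb of exon, *Akt2* stood at 0.472 and 0.417 times the level of *Akt1* in NSD1B WT and at 3.07 and 1.61 times in NSD1B KO, so the order of these 2 genes turned over. This ratio, too, is taken within a library.

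Of 7 listed activators, phosphatases, relatives and substrates of Akt, *Pdpk1*, which encodes the kinase PDK1 that phosphorylates the activation loop of Akt, was the only higher one, at a log2 fold change of 0.45 (adjusted p = 0.000327, edgeR). The other 6 were lower. *Gsk3b*, a kinase that Akt inhibits, fell 3.67-fold, from 117 ± 7.31 to 31.9 ± 2.44 CPM, and its paralog *Gsk3a* had 26 and 37 counts in NSD1B WT and 0 in NSD1B KO. *Sgk1*, a relative of Akt that PDK1 also activates, fell 2.40-fold from 20.7 ± 3.17 CPM. *Phlpp1* and *Phlpp2*, the genes of phosphatases of Akt, were both in this lower group, *Phlpp2* with 0 counts in NSD1B KO.

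**Figure D3:**
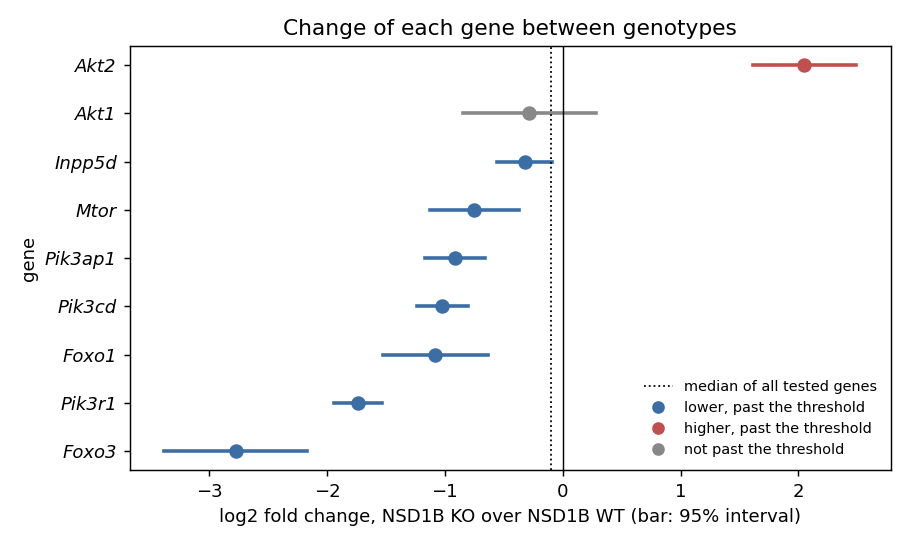
Log2 fold change of NSD1B KO over NSD1B WT for each of the 9 genes, with the 95% interval from edgeR's quasi-likelihood fit. The dotted line is the median of all tested genes at -0.10. *Akt2* lies at 2.05, the interval of *Akt1* spans 0, and *Foxo3* lies farthest to the left at -2.78.

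The Foxo factors, which Akt keeps out of the nucleus, were both lower in NSD1B KO. *Foxo3* (ENSMUSG00000048756.11), at chromosome 10, 42181841 to 42276755, minus strand, had 126 and 103 counts in NSD1B WT and 14 and 18 in NSD1B KO. This was 15.9 ± 2.51 CPM in NSD1B WT and 2.31 ± 0.516 in NSD1B KO, the lowest level of the 9 genes. *Foxo3* changed by -2.78 ± 0.30 (standard error) on the log2 scale (adjusted p = 1.46e-11, edgeR), a 6.85-fold decrease. When single libraries were left out, it lay between -3.01 and -2.56. Of 3633 tested genes of like level, 21.5% fell by as much or more.

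*Foxo1* (ENSMUSG00000044167.6), at chromosome 3, 52268336 to 52353221, plus strand, is the Foxo factor known to act at several steps of B cell development. It had 125 and 123 counts in NSD1B WT and 61 and 52 in NSD1B KO, or 17.2 ± 0.472 and 8.10 ± 0.529 CPM. The libraries of a genotype agreed closely, and *Foxo1* changed by -1.08 ± 0.22 (standard error) on the log2 scale (adjusted p = 2.44e-05, edgeR). Leaving out single libraries gave -1.15 to -1.01, and 31.9% of 3740 tested genes of like level fell at least as much. The antisense gene Gm20402 shares 674 bp of exon with *Foxo1*, and it was listed with 0 counts in all 4 libraries. The strand setting of the counting is not given in the sources used here.

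*Foxo3* fell more than *Foxo1*. Per kb of exon, *Foxo1* was at 0.867 and 1.04 times the level of *Foxo3* in NSD1B WT, where neither was clearly above the other, and at 3.81 and 2.52 times in NSD1B KO. *Foxo4* had 3 and 9 counts in NSD1B WT and 0 in NSD1B KO and was not tested, and *Foxo6* had 0 counts everywhere. Summed over the family, the level was 4.47 and 4.16 CPM per kb in NSD1B WT and 1.24 and 1.25 in NSD1B KO.

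Genes known as targets of Foxo factors did not share a direction. Of 15 listed, 11 were tested, and 2 were higher, 4 lower and 5 not past the threshold, with a median log2 fold change of 0.04. Once the length and GC trend was taken out, 5 were higher and 4 lower. *Sesn1*, which encodes a stress sensor that restrains mTORC1, fell by 1.57 on the log2 scale, from 91.3 ± 7.24 to 30.8 ± 1.48 CPM, and *Ccng2*, the gene of an atypical cyclin of resting cells, fell 2.18-fold. *Il7r*, the receptor chain of early B cells and T cells, had 62 and 63 counts in NSD1B WT and 5 and 2 in NSD1B KO. *Bcl2l11*, the gene of the death factor BIM, had 6 and 7 counts in NSD1B WT and 140 and 136 in NSD1B KO, a 21.6-fold increase (adjusted p = 1.50e-16, edgeR). *Klf2*, a factor that keeps B cells quiescent, was at 257 ± 16.9 and 265 ± 17.2 CPM, a log2 fold change of 0.04 (adjusted p = 0.626, edgeR) that became 0.35 (adjusted p = 0.000167) once the length and GC trend was taken out.

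*Mtor* encodes the kinase at the core of mTORC1 and mTORC2. *Mtor* (ENSMUSG00000028991.15), at chromosome 4, 148448611 to 148557683, plus strand, had 162 and 161 counts in NSD1B WT and 105 and 80 in NSD1B KO. Its level was 22.3 ± 0.458 CPM in NSD1B WT and 13.2 ± 1.91 in NSD1B KO. Both NSD1B KO libraries were lower, and *Mtor* changed by -0.75 ± 0.19 (standard error) on the log2 scale (adjusted p = 0.000342, edgeR). When single libraries were left out, it lay between -0.91 and -0.61. Of 3800 tested genes of like level, 34.8% fell at least as much.

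The subunits that distinguish the mTOR complexes moved in opposite ways. *Rptor*, which defines mTORC1 and recruits its substrates, had 0 counts in NSD1B WT and 55 and 44 in NSD1B KO, at least 34.3-fold higher. *Rictor*, which defines mTORC2, the complex that phosphorylates the tail of Akt, fell 9.53-fold, from 30.3 ± 2.06 to 3.17 ± 0.557 CPM. *Mapkap1*, the gene of the mTORC2 subunit Sin1, rose 3.94-fold from 10.3 ± 1.05 CPM. *Akt1s1*, the gene of PRAS40, an inhibitor of mTORC1 that Akt phosphorylates, fell 3.71-fold from 22.7 ± 2.32 CPM. In all, 2 of the 6 tested subunits besides *Mtor* were higher, 3 were lower, and *Mlst8*, shared by both complexes, was not past the threshold.

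Of 9 tested regulators and substrates of mTORC1, 4 were higher, 4 lower and 1 not past the threshold, and their median was -0.03 on the log2 scale. The lower count was 3 by limma-voom, without NSD1B KO replicate 2 and once the length and GC trend was taken out, where *Rps6kb2*, at -0.39, lost its call (-0.41, -0.16 and 0.03). *Tsc1*, a brake on the mTORC1 activator Rheb, fell 4.50-fold from 21.4 ± 3.38 CPM, and *Rhebl1*, a relative of Rheb, had 85 and 128 counts in NSD1B WT and 25 and 26 in NSD1B KO. *Eif4ebp1* and *Eif4ebp2* encode repressors of translation that mTORC1 inactivates, and both rose, *Eif4ebp1* 2.22-fold from 63.4 ± 1.31 CPM and *Eif4ebp2* 5.29-fold from 4.90 ± 1.39 CPM. The PI3K enzymes of the other classes, which make PI3P and related lipids on endosomes, included the pair of partners *Pik3c3* and *Pik3r4*, the genes of Vps34 and Vps15. *Pik3c3* fell 2.48-fold, from 28.8 ± 0.221 to 11.6 ± 2.09 CPM, and *Pik3r4* rose 2.88-fold, from 15.5 ± 0.729 to 44.6 ± 3.95 CPM. *Pik3c2b* of class II rose 1.43-fold (adjusted p = 0.00172, edgeR).

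Over the 68 listed genes of the pathway besides the 9, 52 were tested, and 15 were higher, 29 lower and 8 not past the threshold. The share past the threshold was 84.6%, beside 78.2% of all tested genes, and the median log2 fold change was -0.38, beside -0.10. A genotype had no count in either library for 2 of these genes in NSD1B WT and for 4 in NSD1B KO, together 11.5% of the 52, beside 18.9% of all tested genes.

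**Figure D4:**
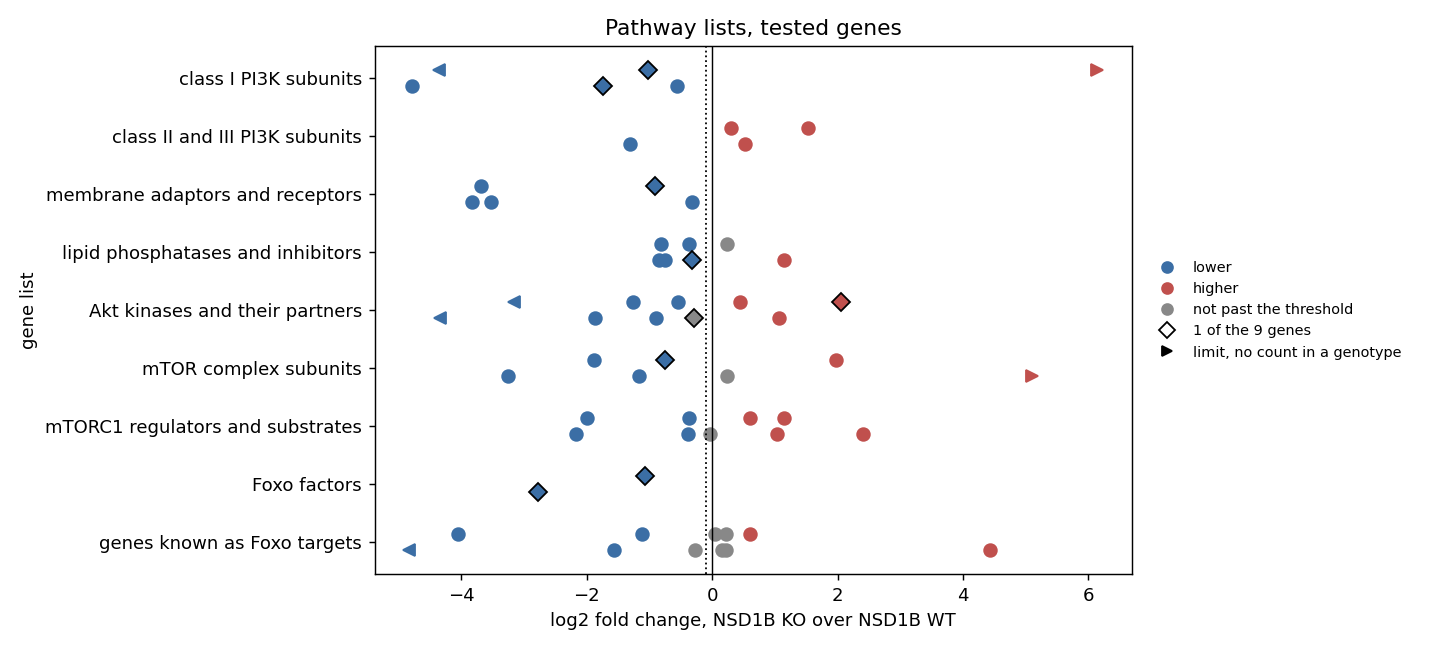
Log2 fold change of NSD1B KO over NSD1B WT for the tested genes of 9 pathway lists, coloured by whether they were past the threshold. Diamonds are the 9 genes, triangles are limits for genes without a count in a genotype, and the dotted line is the median of all tested genes. All tested adaptors and receptors lie to the left of 0, and mTORC1 regulators and substrates lie on both sides, 4 past the threshold on each.

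The order of the 9 genes by level per kb of exon changed between genotypes. In NSD1B WT, *Pik3r1* (14.1 to 15.3 CPM per kb) and *Pik3cd* (13.4 to 14.1) led, next to each other within the spread of the libraries, followed by *Pik3ap1* (9.52 to 11.9) and *Inpp5d* (7.07 to 7.31). The libraries of *Foxo3* (1.86 to 2.33) spanned those of *Mtor* (2.18 to 2.24), *Akt1* (1.91 to 2.07) and *Foxo1* (1.94 to 2.02), of which *Mtor* was above the other two, and *Akt2* (0.863 to 0.903) was last. In NSD1B KO, *Pik3cd* (6.74 to 6.79) led, *Inpp5d* (5.36 to 6.12) and *Pik3ap1* (5.51 to 5.87) overlapped, and *Pik3r1* (4.19 to 4.62) overlapped with *Akt2* (3.04 to 4.27). *Akt1* (1.39 to 1.89) and *Mtor* (1.18 to 1.44) overlapped as well, then came *Foxo1* (0.892 to 0.978) and, last, *Foxo3* (0.257 to 0.353). The lowest place passed from *Akt2* to *Foxo3*.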

How the data were processed

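The 4 RNA-seq libraries of sorted splenic B220+ cells were grouped by their labels into NSD1B WT and NSD1B KO. The authors deposited raw counts per gene, 1 whole number per gene and library, from reads mapped to mm10 with Bowtie2, the tool the submitters' processing notes and the Methods name. FPKM from Cufflinks, also named there, were not used. Which program counted the reads, with which strand setting and annotation, is not given in the sources used here. Reads on no gene (44.3% to 44.6% of the counted reads) and other classes naming no gene stayed out of library sizes and tests.

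Genes were kept by filterByExpr (minimum count 10, minimum total 15), scaled by TMM (factors 0.952 to 1.03) and tested with edgeR 4.0.16 in R 4.3.3 by glmQLFTest across all genes, without a block. CPM values are TMM-scaled. The biological coefficient of variation was 0.0735. The Methods' p below 0.05 was taken as adjusted. Positions, union exon lengths and overlaps come from GENCODE M21, which matched 55141 of 55401 identifiers, and promoters from RefSeq, which held windows for all 9 genes. Where a genotype had no count, folds were bounded with 3 counts summed over its libraries (0.208 CPM in NSD1B WT, 0.215 in NSD1B KO), which covers counting error only. Within a genotype the mean chi-square per gene was 3.02 and 3.90, so the libraries are not copies of each other.

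The 9 genes, the pathway lists and the cell type markers were chosen with earlier results of these data known. Genes besides the 9 were named by a rule, up to 2 higher and 2 lower per list with the largest change among genes past the threshold whose mean log2 CPM was 3 or more. *Pik3cb*, *Pik3r3*, *Gsk3a*, *Phlpp1*, *Phlpp2*, *Rptor*, *Mlst8*, *Inpp5k*, *Pik3ip1*, *Rps6kb2*, *Il7r*, *Klf2*, *Foxo4*, *Foxo6* and the markers named fall outside it, and their values were seen before they were chosen. The edgeR fit was tested on simulated data in which most genes did not change, and the alternatives were not tested. In the real data 78.2% of tested genes were past the threshold, a case that the simulation does not cover. Alternatives were DESeq2 1.42.0 and limma-voom (limma 3.58.1), other scalings, filters and thresholds, each library left out, the replicate number as a block, a loess trend (span 0.5) with exon length and GC content (of the longest transcript) removed, and immunoglobulin genes left out. Protein sequences were not used here, and some genes of the lists are counted but not reported by name.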

Additional observations from a re-analysis of the deposited data

How the results depend on the processing

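Of 135 values of the 9 genes under 15 alternatives, 128 kept their direction and their side of the threshold. The exceptions were *Inpp5d*, which lost its call in 5 of them, and *Akt1*, which turned from -0.28 to 0.12 once the length and GC trend was taken out and to 0.11 when the replicate block was added to that, never past the threshold. That trend moved the median of all tested genes by 0.18, from -0.10 to 0.08, so that part of each shift under it is common to all genes. The stricter threshold (adjusted p below 1e-05, absolute log2 fold change above 0.5) left 4 of the 9 genes lower and 1 higher. A filter of 1 CPM in all libraries tests fewer genes (8334), and left 2855 of them higher and 2991 lower, against 4324 and 4795. Among the 44 genes of the wider pathway past the threshold, 39 had the same call in each of the 15 alternatives that tested them, and 5 lost it in at least 1. The stricter threshold, which is not among the 15, left 10 of the wider genes higher and 23 lower, against 15 and 29. With each library left out in turn, 6 to 7 of the 9 genes were lower and 1 was higher.

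The replicate numbers of the labels were used as a block, alone and together with the length and GC trend. With the replicate block, 4254 genes were higher and 4706 lower, 1 and 7 of the 9 genes among them, and the block alone changed no call of the 9 genes. The differences between replicates 1 and 2 had a correlation of 0.0756 between genotypes over 7013 genes, and the labels do not say that a number marks a shared litter or day. Counts of 41 to 62 for *Akt1* over all libraries, and of 14 to 18 for *Foxo3* in NSD1B KO, limit what can be read from these genes.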

Other observations

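Of the 68 other genes of the pathway lists, 12 were listed with 0 counts in all 4 libraries, namely *Pik3cg*, *Pik3r6*, *Pik3c2g*, *Gab1*, *Irs1*, *Inppl1*, *Deptor*, *Prr5l*, *Foxo6*, *Rag1*, *Rag2* and *Tnfsf10*. A count of 0 over the 2 libraries of a genotype allows up to 3 counts, or 0.208 CPM in NSD1B WT and 0.215 CPM in NSD1B KO. *Pik3r2*, the gene of p85β, a regulatory subunit used in most cells, had 1 count in all 4 libraries together. *Pik3cg* encodes p110γ, a catalytic subunit of white blood cells whose partner is p101. The gene of that partner, *Pik3r5*, had 169 and 154 counts in NSD1B WT and 5 and 6 in NSD1B KO.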
